A study of Mus musculus with 16 samples.

Results

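The genes described here are those of the signalling chains of the T cell receptor and of the co-receptors that work beside it: Cd3d, Cd3e, Cd3g, Cd247, Cd8a, Cd8b1, Cd4, Cd5 and Cd6. They were chosen by name, with no threshold on a measured value but with earlier results of these data known, and all 9 were measured among the 19938 genes of the arrays. Each gene was read by 1 probe set.

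The antigen-binding chains of the T cell receptor have almost no cytoplasmic part, and signalling is left to the CD3 chains gamma, delta and epsilon and to the zeta chain, encoded by Cd3g, Cd3d, Cd3e and Cd247. Their cytoplasmic tyrosine motifs are phosphorylated by Lck and then bind the kinase Zap70. CD8, made of an alpha and a beta chain or of alpha chains alone, and CD4 bind MHC molecules and bring Lck to the receptor, while CD5 and CD6 are related scavenger-receptor proteins that tune its signal. Cytotoxic T cells are known for high CD3 and CD8 and for a silenced Cd4 gene.

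RNA came from a pair of cultured mouse CD8 T cell clones, named conventional and unconventional, which the labels call cyclosporine-sensitive and cyclosporine-resistant. Both had been kept in medium with IL-1a, IL-6, IL-7, IL-15, TNF-α, IFN4-α and IFN-g. Cells of all 4 groups were then stimulated through CD3 with immobilized antibody 145-2c11 and no added recombinant cytokine, and 1 group of each clone also received cyclosporine A at 1 ug/ml. This antibody binds CD3 epsilon, the product of Cd3e, so every group was activated through a protein whose gene is described here. Cyclosporine A is a drug that, bound to cyclophilin, blocks calcineurin, the calcium-activated phosphatase that lets NFAT factors enter the nucleus. The sources used here do not give the mouse strain, its age or the length of stimulation, and unstimulated cells were not analysed here. Each kind of CD8 T cell was represented by 1 clone, so a difference of kind and a difference between these clones cannot be told apart.

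Each group held 4 arrays, 16 in all. Levels are log2 expression values, given per array in the order of the replicate numbers, and a change is a difference of group means on that scale. A change was called at an adjusted p under 0.05 (limma, Benjamini-Hochberg over all 19938 genes, two-sided). The labels do not state whether arrays of a group came from separate cultures, so the p-values cover only the variation among these arrays. Arrays of a group correlated at 0.9947 to 0.998 over all probe sets. Fewer cells of a type and less RNA of a gene per cell cannot be told apart in bulk RNA.

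The cell type was checked with marker lists. Of the 9 CD8 T cell markers, 5 are among the genes described here, and the other 4, Gzmb, Prf1, Ccl5 and Runx3, lay above the array's median gene on all 16 arrays. Over the 16 arrays the mean level of the whole list was 11.16 to 11.81, of 4 measured B cell genes 3.71 to 3.96, of CD4 T cell genes 4.54 to 4.91, of NK cell genes 4.52 to 5.37, and of macrophage and dendritic cell genes 5.16 to 5.58. These means describe each list's brightness, and levels of different probe sets are not comparable. Among the latter, the macrophage genes Lyz2, Csf1r, Itgam and Adgre1 and the dendritic cell gene Flt3 lay below the array's median gene on all 16 arrays. Cd68 and Itgax lay above it, and both were called higher with cyclosporine A in each clone, by 0.79 and 1.33 in the conventional clone and by 0.43 and 0.76 in the unconventional clone. Klrk1, an activating receptor of NK cells and cytotoxic T cells, was called lower with the drug in the conventional clone, from 9.35 to 7.63. In the unconventional against the conventional clone, Klrk1 was called higher by 1.36 with anti-CD3 alone and by 3.23 with the drug, and Cd68 by 1.44 and 1.08. Of the gamma delta T cell list, Trdc and Trgc1 were not measured, and Il23r lay below the array's median gene on all 16 arrays. Sox13 of that list lay above it on all 16, with group means of 6.44 to 6.66, and was not called in any comparison. S100a8 and S100a9, of the list of erythroid cells and granulocytes, lay below it on all 16. The part of these marker genes in the results below was not tested.

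**Figure D1:**
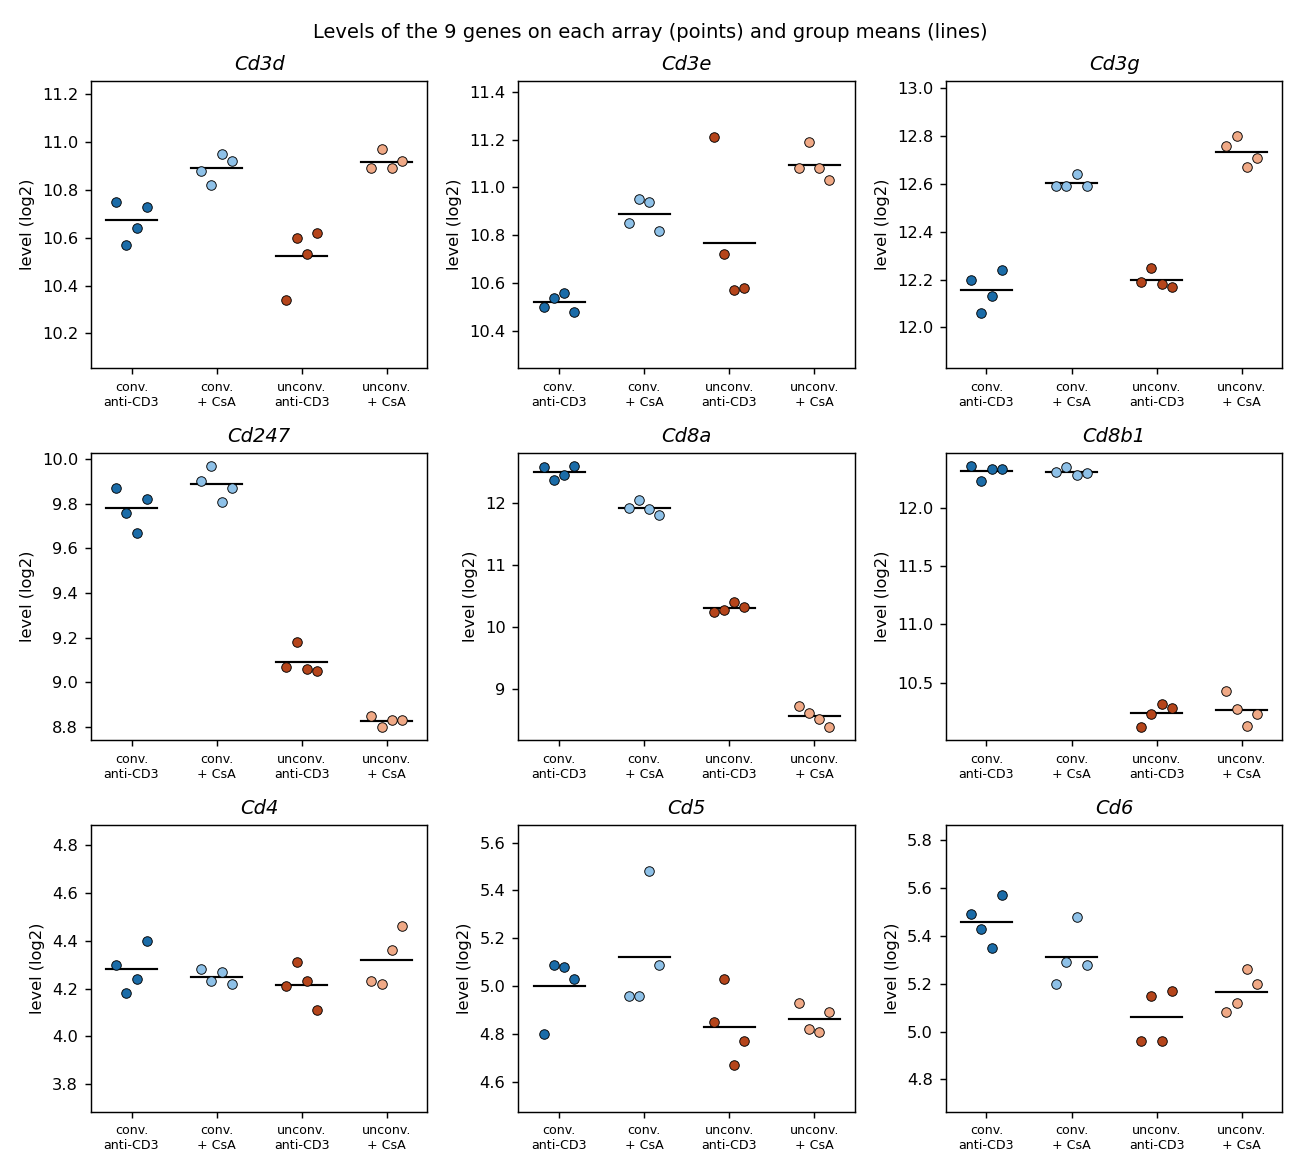
Level of each of the 9 genes (y axis, log2, own scale per panel) on each array (points) in the 4 groups (x axis), with group means as lines. Cd8a falls in steps from 12.50 to 8.56 over the 4 groups, and Cd8b1 separates the clones without a shift by the drug. Cd3d, Cd3e and Cd3g rise with the drug in both clones, Cd247 does not, and Cd4, Cd5 and Cd6 stay between 4.11 and 5.57.

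With cyclosporine A in the conventional clone, 3 of the 9 genes were called higher (Cd3d, Cd3e and Cd3g), 1 was called lower (Cd8a) and 5 were not called. Over all genes, 31.4% were called in this comparison, 15.9% higher and 15.5% lower. In the unconventional clone the drug raised the same 3 CD3 genes and lowered Cd8a and Cd247, while 4 were not called, against 24.9% of all genes called, 12.6% higher and 12.3% lower. The arrays with and without the drug did not overlap for 4 of the 9 genes in either clone, against 30.5% of all genes in the conventional and 27.2% in the unconventional clone. The drug's effect differed between the clones for 2 of 9 genes, Cd8a and Cd247, both more negative in the unconventional clone. Over all genes the difference of effects was called for 16.3%, with 8.51% more positive and 7.78% more negative there.

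Between the clones with anti-CD3 alone, 4 of the 9 genes were called lower in the unconventional clone (Cd8a, Cd8b1, Cd247 and Cd6) and 0 higher. Of all genes, 42.0% were called, 20.3% higher and 21.7% lower, which are 4048 and 4328 genes and become 4418 and 2952 when each array is centred on its median. With cyclosporine A, 3 of 9 were called lower (Cd8a, Cd8b1 and Cd247) and 0 higher, against 44.2% called over all genes, 21.3% higher and 23.0% lower. Arrays of the clones did not overlap for 5 of the 9 genes with anti-CD3 alone and for 6 with the drug, against 38.6% and 42.2% of all genes. The median change of the 9 genes was 0.11 and 0.10 for the drug in the conventional and unconventional clone, where that of all genes was 0.02 in both. For the unconventional against the conventional clone it was -0.17 with anti-CD3 alone and -0.14 with the drug, where all genes had -0.07 and -0.08. Between the clones the called share of the 9 genes was near that of all genes. For the drug it was above that share by few genes, and these shares were not tested.

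**Figure D2:**
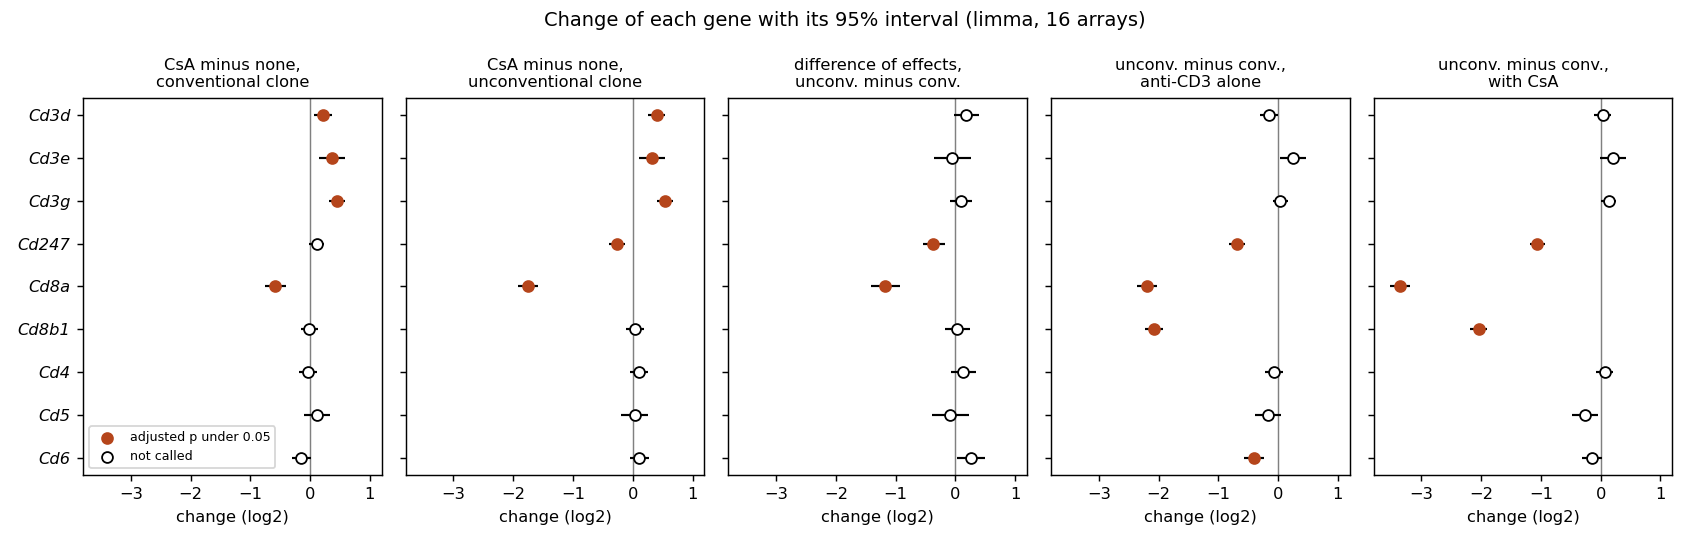
Change of each of the 9 genes (x axis, log2, with 95% interval as a line) in the 5 comparisons (panels); filled points have an adjusted p under 0.05 and open points were not called. The largest changes are those of Cd8a, from -0.58 for the drug in the conventional clone to -3.36 between the clones with the drug, and Cd8b1 departs from 0 only between the clones.

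Cd3d, Cd3e and Cd3g, which encode the delta, epsilon and gamma chains, were each higher with cyclosporine A in both clones, by 1.16-fold to 1.45-fold. The 3 genes lie side by side on chromosome 9 in the order Cd3g, Cd3d, Cd3e. Because they moved together, the windows around their start sites are shown, 250 bases before to 50 after, from RefSeq (GRCm38.p6), with the core of the NFAT motif, GGAAA or TTTCC on the other strand, in capitals. The Cd3g window is chr9:44980382-44980681, minus strand, that of Cd3d is chr9:44981536-44981835, plus strand, and that of Cd3e is chr9:45009562-45009861, minus strand.
Cd3g: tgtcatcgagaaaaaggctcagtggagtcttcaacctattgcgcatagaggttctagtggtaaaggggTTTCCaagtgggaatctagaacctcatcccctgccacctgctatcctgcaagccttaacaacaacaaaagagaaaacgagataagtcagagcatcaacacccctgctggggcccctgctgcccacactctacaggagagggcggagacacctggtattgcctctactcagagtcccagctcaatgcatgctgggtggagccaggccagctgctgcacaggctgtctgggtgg
Cd3d: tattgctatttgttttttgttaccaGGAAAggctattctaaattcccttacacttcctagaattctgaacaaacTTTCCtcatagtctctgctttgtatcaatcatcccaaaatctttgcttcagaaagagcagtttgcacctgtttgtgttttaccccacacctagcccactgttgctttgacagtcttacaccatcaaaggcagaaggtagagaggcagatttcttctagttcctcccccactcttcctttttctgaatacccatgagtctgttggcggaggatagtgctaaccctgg
Cd3e: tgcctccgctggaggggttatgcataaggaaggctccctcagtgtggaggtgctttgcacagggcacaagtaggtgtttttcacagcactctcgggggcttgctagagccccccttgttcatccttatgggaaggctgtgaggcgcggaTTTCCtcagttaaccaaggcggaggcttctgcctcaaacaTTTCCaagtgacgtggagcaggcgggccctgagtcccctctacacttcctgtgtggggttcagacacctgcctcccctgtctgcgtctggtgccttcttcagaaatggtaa
The Cd3g window holds 1 such core, and those of Cd3d and Cd3e hold 2 each. At least 1 core is found in 61.3% of 32851 RefSeq windows of this length and at least 2 in 26.7%, so the letters are common. None of the 3 windows holds TATAAA, the TATA box sequence, which is in 13.6% of all windows, or TGTGGT, the core bound by Runx factors, which is in 16.8%. Cd3g holds 4 sites of the E box CANNTG, bound by E proteins, 1 of them overlapping the TTTCC core, and 6.49% of windows hold as many. All motifs were searched on both strands, and a match of letters is a description, not a site of binding.

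Cd3g, the gamma chain, had levels of 12.20, 12.06, 12.13 and 12.24 in the conventional clone without the drug and of 12.59, 12.59, 12.64 and 12.59 with it. In the unconventional clone the levels were 12.19, 12.25, 12.18 and 12.17 with anti-CD3 alone and 12.76, 12.80, 12.67 and 12.71 with the drug. All 8 arrays with cyclosporine A were thus above all 8 without it. The drug raised Cd3g by 0.45 (SE 0.06, adjusted p = 4.7e-06) in the conventional clone and by 0.54 (SE 0.06, adjusted p = 9.7e-07) in the unconventional clone. These effects differed by 0.09, with a 95% interval from -0.09 to 0.27 and an adjusted p of 0.6024. Between the clones Cd3g differed by 0.04 (interval -0.09 to 0.17) with anti-CD3 alone. With the drug the arrays of the clones did not overlap, and the difference of 0.13 was not called (adjusted p = 0.0840), but it passed the threshold with quantile normalization, among brighter genes or with a variance trend (adjusted p 0.0134 to 0.0363).

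Cd3d, the delta chain, stood at 10.75, 10.57, 10.64 and 10.73 in the conventional clone and at 10.88, 10.82, 10.95 and 10.92 there with the drug. Levels in the unconventional clone were 10.34, 10.60, 10.53 and 10.62 with anti-CD3 alone and 10.89, 10.97, 10.89 and 10.92 with the drug. Again no array without cyclosporine A reached any array with it. The rise was 0.40 (SE 0.07, adjusted p = 2.1e-04) in the unconventional clone and 0.22 (SE 0.07, adjusted p = 0.0215) in the conventional clone. The smaller rise was not called after median centring (0.20, adjusted p = 0.0737), without replicate 2 or 3 of the conventional group lacking the drug (0.18 and 0.21, adjusted p = 0.0790 and 0.0535), or without replicate 3 of its cyclosporine A group (0.20, adjusted p = 0.0626). The effects differed by 0.18 (interval -0.03 to 0.39, adjusted p = 0.2869). The clones differed by -0.15 (adjusted p = 0.0969) with anti-CD3 alone, which passed the threshold after quantile normalization, loess normalization or with a variance trend (adjusted p 0.0259 to 0.0450), and by 0.03 (interval -0.12 to 0.18) with the drug.

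Cd3e encodes the chain that the stimulating antibody binds. Its levels in the conventional clone were 10.50, 10.54, 10.56 and 10.48 with anti-CD3 alone and 10.85, 10.95, 10.94 and 10.82 with the drug, with no overlap. In the unconventional clone they were 11.21, 10.72, 10.57 and 10.58 with anti-CD3 alone and 11.08, 11.19, 11.08 and 11.03 with the drug. Replicate 1 of the former was the highest of all 16 arrays for Cd3e, lay above every array with the drug and was also the lowest of the 16 for Cd3d. When arrays were weighted by their agreement with their group, that array had the lowest weight, 0.451, where the highest was 1.611. The rise with the drug was 0.37 (SE 0.10, adjusted p = 0.0086) in the conventional and 0.32 (SE 0.10, adjusted p = 0.0257) in the unconventional clone. Without replicate 1 the latter was 0.47 (adjusted p = 2.9e-05), and it was not called after median centring (0.28, adjusted p = 0.0676), with the arrays of that clone alone (adjusted p = 0.0637), without replicate 2, 3 or 4 of the anti-CD3 group (0.31, 0.26 and 0.26) or without replicate 2 of the cyclosporine A group (0.29).

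The clones differed in Cd3e by 0.25 (interval 0.03 to 0.47, adjusted p = 0.0629) with anti-CD3 alone, a value that was 0.10 without replicate 1 of the unconventional clone. It passed the threshold after median centring, among brighter genes, with a variance trend, or without replicate 3 or 4 of that group (adjusted p 0.0225 to 0.0421). With the drug the difference was 0.20 (interval -0.01 to 0.42, adjusted p = 0.1237), called with array weights or with these 2 groups alone (adjusted p = 0.0425 and 0.0264). For Cd3d, Cd3e and Cd3g together, all 3 were called higher with the drug in each clone, where 15.9% and 12.6% of all genes were. Their median change was 0.37 in the conventional and 0.40 in the unconventional clone. Between the clones 0 of 3 were called, against 42.0% of all genes with anti-CD3 alone and 44.2% with the drug. For the difference of effects 0 of 3 were called, against 16.3%. The calls of Cd3d in the conventional and of Cd3e in the unconventional clone were lost in the alternatives given above.

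Cd247 encodes the zeta chain, whose gene is on chromosome 1, apart from the other CD3 genes, and which carries more of the tyrosine motifs than any other chain of the complex. Its level was lower in the unconventional clone and did not follow the other CD3 chains. In the conventional clone it was 9.87, 9.76, 9.67 and 9.82 with anti-CD3 alone and 9.90, 9.97, 9.81 and 9.87 with the drug. The unconventional clone had 9.07, 9.18, 9.06 and 9.05 with anti-CD3 alone and 8.85, 8.80, 8.83 and 8.83 with the drug. The conventional groups overlapped each other, while the unconventional groups were apart from them and from each other. Cyclosporine A lowered Cd247 by 0.26 in the unconventional clone (a change of -0.26, SE 0.06, adjusted p = 0.0033). In the conventional clone its change was 0.11 (interval -0.02 to 0.24, adjusted p = 0.2375), and the effects differed by -0.37 (SE 0.09, adjusted p = 0.0057).

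Between the clones Cd247 was 1.61-fold lower in the unconventional clone with anti-CD3 alone (change -0.69, SE 0.06, adjusted p = 1.8e-08). With the drug it was 2.08-fold lower (change -1.06, SE 0.06, adjusted p = 1.9e-11). Larger changes in either direction were found for 12.8% and 9.14% of all genes. The Cd247 window of 300 bases, chr1:165788431-165788730 on the plus strand (RefSeq, GRCm38.p6), is shown next to those of the other CD3 chains. It holds 0 NFAT cores, so no letters are in capitals, and 61.3% of all windows hold at least 1.
Cd247: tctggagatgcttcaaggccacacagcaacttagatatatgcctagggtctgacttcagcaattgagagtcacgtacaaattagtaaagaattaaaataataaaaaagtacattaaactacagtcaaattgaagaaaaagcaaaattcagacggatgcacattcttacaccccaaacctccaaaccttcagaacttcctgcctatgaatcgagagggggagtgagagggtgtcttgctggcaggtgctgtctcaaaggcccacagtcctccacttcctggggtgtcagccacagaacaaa
It holds 2 sites of GGAAG, the core bound by Ets factors, as do 37.9% of windows or more, and 0 of TATAAA or TGTGGT.

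A difference of log2 levels within an array is unchanged when the whole array is shifted by a constant, though normalization that depends on intensity can change it. Cd247 was therefore set against the mean of Cd3d, Cd3e and Cd3g on each array. Only shifts of this difference between groups are read, since levels of different probe sets are not comparable. In the conventional clone it was -1.34 ± 0.07 (SD, n = 4) without and -1.58 ± 0.09 (SD, n = 4) with the drug. In the unconventional clone it was -2.07 ± 0.08 (SD, n = 4) and -2.76 ± 0.07 (SD, n = 4). The 4 groups did not overlap. Cyclosporine A thus shifted it by -0.24 and -0.68 in the conventional and unconventional clone, and the clones differed by -0.74 with anti-CD3 alone and by -1.18 with the drug. Each shift had a p of 0.0286 in an exact permutation test (two-sided), the smallest that 4 arrays against 4 can give, and 0.049 after adjustment over the 12 within-array tests made here.

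**Figure D3:**
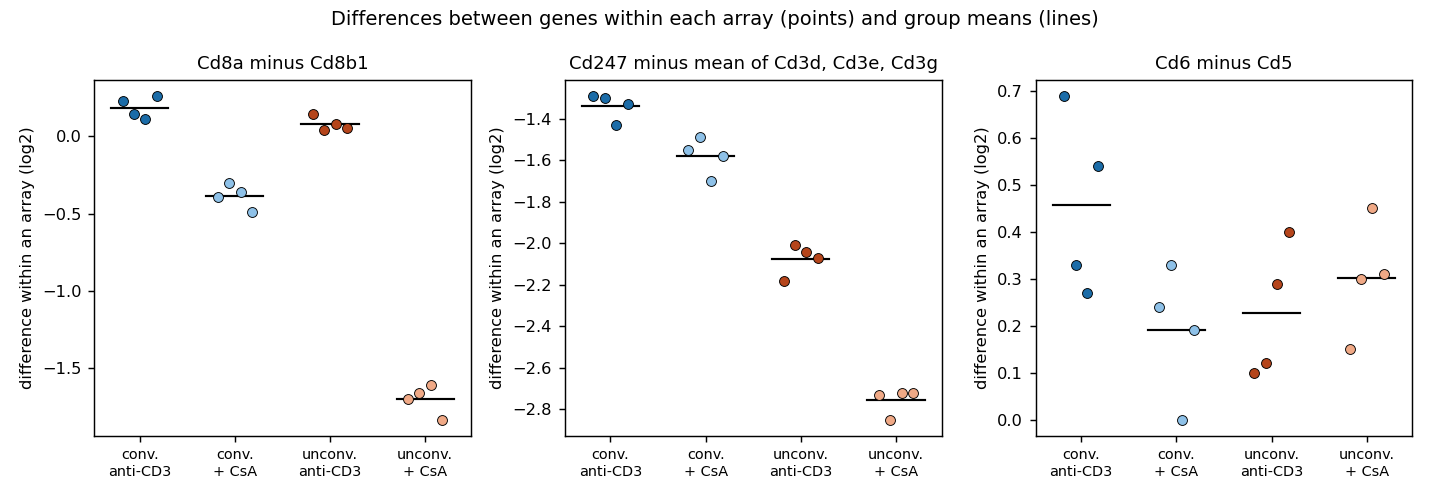
Difference between genes on the same array (y axis, log2; points are arrays, lines are group means) in the 4 groups (x axis) for Cd8a minus Cd8b1, Cd247 minus the mean of Cd3d, Cd3e and Cd3g, and Cd6 minus Cd5. The first drops to -1.70 in the unconventional clone with cyclosporine A, the second falls from -1.34 to -2.76 over the groups, and the third overlaps between groups.

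The CD8 co-receptor genes, Cd8a for the alpha and Cd8b1 for the beta chain, lie next to each other on chromosome 6 and of the 9 genes they differed most between the clones. Both were lower in the unconventional clone, and of the pair Cd8a alone was called with cyclosporine A. Cd8a had levels of 12.59, 12.37, 12.45 and 12.60 in the conventional clone and of 11.92, 12.05, 11.91 and 11.81 there with the drug. The unconventional clone had 10.25, 10.27, 10.40 and 10.33 with anti-CD3 alone and 8.73, 8.61, 8.52 and 8.39 with the drug. The 4 groups were fully apart, in the order conventional, conventional with drug, unconventional, unconventional with drug, and their means spanned 3.94.

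The start-site window of Cd8a, chr6:71373177-71373476 on the plus strand (RefSeq, GRCm38.p6), is printed because this gene had the largest changes of the 9. Capitals again mark GGAAA or TTTCC.
Cd8a: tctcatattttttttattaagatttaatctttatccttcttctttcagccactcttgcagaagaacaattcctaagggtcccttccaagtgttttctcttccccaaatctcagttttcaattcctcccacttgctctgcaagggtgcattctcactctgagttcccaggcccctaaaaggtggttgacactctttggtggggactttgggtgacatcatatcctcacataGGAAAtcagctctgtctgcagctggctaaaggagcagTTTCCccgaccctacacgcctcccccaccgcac
The window holds 2 of these cores, 1 on each strand, close to the start site, and 26.7% of windows hold at least 2. Whether the number of cores goes with the response to the drug was not tested. It holds 3 E box sites CANNTG, found as often in 17.6% of windows, and 0 of TATAAA or TGTGGT.

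Cyclosporine A lowered Cd8a by 1.75 in the unconventional clone, a 3.37-fold fall (SE 0.08, interval -1.92 to -1.58, adjusted p = 3.6e-12). Only 125 of the other genes, 0.627%, changed more in either direction in that comparison. In the conventional clone Cd8a fell by 0.58, or 1.49-fold (SE 0.08, interval -0.75 to -0.41, adjusted p = 8.3e-06), and 12.3% of genes changed more. The effects differed by -1.17 (SE 0.11, interval -1.41 to -0.93, adjusted p = 3.5e-07), with 2.18% of genes differing more. Between the clones Cd8a was 4.56-fold lower in the unconventional clone with anti-CD3 alone (change -2.19, SE 0.08, adjusted p = 2.0e-14) and 10.3-fold lower with the drug (change -3.36, SE 0.08, adjusted p = 2.0e-17).

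Cd8b1 stood at 12.36, 12.23, 12.33 and 12.33 in the conventional clone without the drug and at 12.31, 12.35, 12.28 and 12.30 with it. The unconventional clone had 10.12, 10.23, 10.32 and 10.28 with anti-CD3 alone and 10.43, 10.27, 10.13 and 10.23 with the drug. Arrays with and without the drug overlapped in each clone, while the clones were apart. The drug's effect was -0.01 (interval -0.15 to 0.14, adjusted p = 0.9657) in the conventional and 0.03 (interval -0.12 to 0.18, adjusted p = 0.8629) in the unconventional clone. These intervals hold no fall larger than 0.15. Cd8b1 was 4.22-fold lower in the unconventional clone with anti-CD3 alone (change -2.08, SE 0.07, adjusted p = 5.6e-15) and 4.12-fold lower with the drug (change -2.04, SE 0.07, adjusted p = 5.3e-15).

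Within arrays, Cd8a minus Cd8b1 with anti-CD3 alone was 0.19 ± 0.07 (SD, n = 4) in the conventional and 0.08 ± 0.04 (SD, n = 4) in the unconventional clone. Those groups overlapped, and the shift of -0.11 had an exact permutation p of 0.0571 (adjusted 0.0762). With the drug it was -0.38 ± 0.08 (SD, n = 4) in the conventional and -1.70 ± 0.09 (SD, n = 4) in the unconventional clone. Shifts by the drug of -0.57 and -1.78 and the shift of -1.32 between the clones with the drug each had an exact permutation p of 0.0286 (adjusted 0.049). Cd8a and Cd8b1 therefore changed unequally with cyclosporine A in both clones.

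Neighbours of the pair in the RefSeq gene order (GRCm38.p6) were read as a description, 3 measured genes on each side. Smyd1, a muscle methyltransferase gene, was lower in the unconventional clone, with group means of 6.77 and 6.45 in the conventional clone without and with the drug and of 4.49 and 4.34 in the unconventional clone. Its change between the clones was -2.29 (adjusted p = 8.2e-14) with anti-CD3 alone and -2.11 (adjusted p = 1.8e-13) with the drug, and the drug's effect was -0.32 (adjusted p = 0.0107) in the conventional and -0.15 (adjusted p = 0.3185) in the unconventional clone. Krcc1 and Gm1070 lie between Smyd1 and Cd8b1. Krcc1 was 0.49 higher in the unconventional clone (adjusted p = 9.6e-04) and Gm1070 was lower there, a change of -0.29 (adjusted p = 0.0281), both with anti-CD3 alone. On the far side of Cd8a, Rmnd5a, Rnf103 and Chmp3 had changes of -0.14 to -0.07 in that comparison, 0 of them called. None of the 6 neighbours was called lower with the drug in the unconventional clone, where 12.3% of all genes were, and Rmnd5a rose by 0.24 (adjusted p = 0.0387). Smyd1 and Gm1070 had means of 4.49 and 5.14 in that clone without the drug. These lie below the range of the array medians of all genes (5.36 to 5.55), where differences are compressed, so a fall could be missed.

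**Figure D4:**
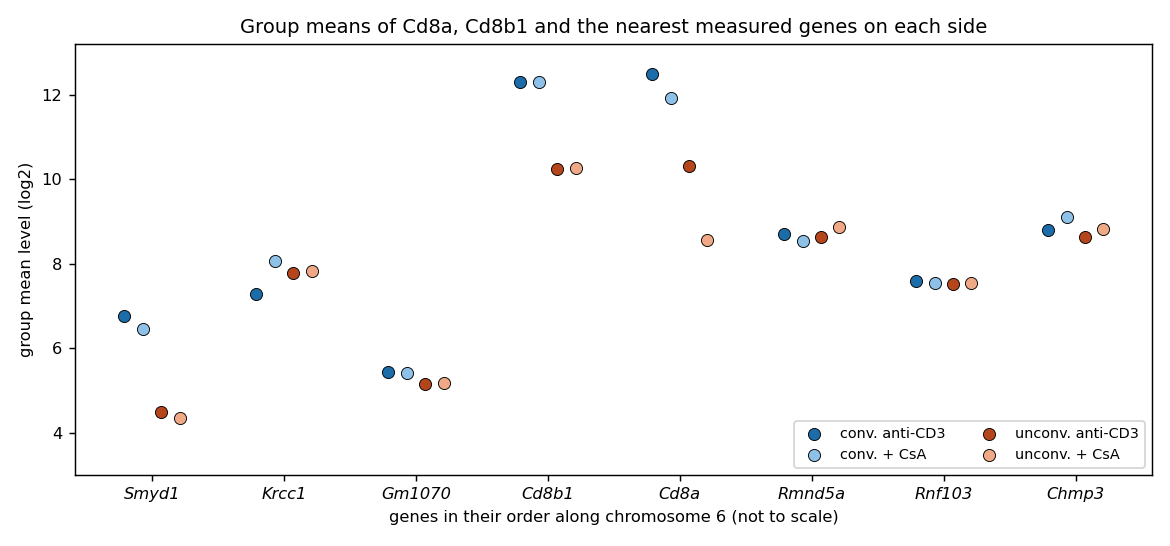
Group mean level (y axis, log2) of Cd8b1, Cd8a and the 3 nearest measured genes on each side, in gene order along chromosome 6 (x axis, not to scale), with 1 point per group. Cd8b1 splits by clone, Smyd1 by clone with a smaller fall of -0.32 with the drug in the conventional clone, Cd8a by clone and drug, and the genes after Cd8a show smaller differences.

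Cd4, the co-receptor of helper T cells, was at the low end of the scale. Its 16 levels lay between 4.11 and 4.46, below the array's median gene (5.36 to 5.55) on all 16 arrays, and the group means were 4.28 ± 0.09, 4.25 ± 0.03, 4.21 ± 0.08 and 4.32 ± 0.11 (SD, n = 4) in the order conventional, conventional with drug, unconventional, unconventional with drug. All groups overlapped, and its changes, from -0.07 to 0.10 in the comparisons of groups, were not called. Zbtb7b, the factor known for the CD4 lineage, was above the median gene on all 16 arrays, with group means between 6.20 and 7.07. It was called higher with the drug, by 0.47 in the conventional and 0.53 in the unconventional clone. Between the clones it was called higher in the unconventional clone, by 0.34 without and 0.40 with the drug.

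Cd5 and Cd6, pan-T-cell receptors whose genes are close together on chromosome 19, were also dim. Cd5 was below the median gene on 16 of 16 arrays and Cd6 on 14 of 16. Differences at such levels are compressed, and whether the probe sets respond to higher expression was not tested. Cd5 had levels of 4.80, 5.09, 5.08 and 5.03 in the conventional clone and of 4.96, 4.96, 5.48 and 5.09 with the drug. The unconventional clone had 4.85, 5.03, 4.67 and 4.77 with anti-CD3 alone and 4.93, 4.82, 4.81 and 4.89 with the drug. Cd5 was not called in any comparison. Its largest change, -0.26 between the clones with the drug (interval -0.48 to -0.04, adjusted p = 0.0513), came from groups that did not overlap and passed the threshold with array weights or without replicate 1 or 2 of the conventional clone with the drug (adjusted p 0.0270 to 0.0456).

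Cd6 stood at 5.49, 5.43, 5.35 and 5.57 in the conventional clone and at 5.20, 5.29, 5.48 and 5.28 there with the drug. In the unconventional clone it was at 4.96, 5.15, 4.96 and 5.17 with anti-CD3 alone and at 5.08, 5.12, 5.26 and 5.20 with the drug. With anti-CD3 alone the clones did not overlap, and Cd6 was lower in the unconventional clone (change -0.40, SE 0.08, adjusted p = 2.9e-04). The change between the clones with the drug was -0.14 (interval -0.31 to 0.02, adjusted p = 0.1460). Cyclosporine A gave changes of -0.15 (adjusted p = 0.1797) and 0.11 (adjusted p = 0.3923) in the conventional and unconventional clone, which differed by 0.26 (adjusted p = 0.1372). Cd6 minus Cd5 within arrays shifted by -0.27 to 0.12 between groups, with exact permutation p-values from 0.0571 to 0.4286 and adjusted values from 0.0762 to 0.4286. The window of Cd5 holds 1 NFAT core and 3 Ets cores. Windows of Cd8b1, Cd4 and Cd6 were not used here.

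The genes that act next to these chains were described from lists. Of 32 genes of proximal receptor signalling, 29 were measured. With cyclosporine A in the conventional clone 19 were called higher, 4 lower, where 15.9% and 15.5% of all genes were, and the median change was 0.56, where all genes had 0.02. Ubash3b, a phosphatase that dampens receptor signals, rose by 3.18 (adjusted p = 6.9e-13). Dok2, an inhibitory adaptor, rose by 2.76 (adjusted p = 4.8e-14), and Prkcq, the protein kinase C theta of the synapse, fell by 2.80 (adjusted p = 8.4e-14). The unconventional clone had 13 higher and 3 lower, where 12.6% and 12.3% of all genes were, with a median of 0.15. In the unconventional clone the adaptor genes Grap2, Fyb and Lax1 rose by 1.81, 1.58 and 1.33. They were also called higher in the conventional clone, by 2.24, 0.56 and 1.79. The difference of effects was called for 20 of the 29, 6 more positive and 14 more negative in the unconventional clone, with a median of -0.43. Over all genes it was called for 16.3%, with 8.51% more positive and 7.78% more negative. Among the 20 were Ubash3b, whose effects differed by -3.32 (adjusted p = 4.8e-10), and Prkcq, whose effects differed by 2.70 (adjusted p = 2.4e-10). Without and with the drug, the unconventional clone had means of 4.56 and 4.42 for Ubash3b and of 3.89 and 3.79 for Prkcq. These lie below the range of the array medians of all genes (5.36 to 5.55), where differences are compressed, so a change in that clone could be missed.

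Between the clones, 14 of the 29 were called lower and 6 higher in the unconventional clone with anti-CD3 alone, and 18 lower and 4 higher with the drug, where 42.0% and 44.2% of all genes were called. Lcp2, the SLP-76 adaptor that links Lat to phospholipase C, had group means of 11.01 and 11.19 in the conventional clone and of 5.97 and 4.79 in the unconventional clone, without and with the drug. Its changes between the clones were -5.05 (adjusted p = 5.2e-17) and -6.40 (adjusted p = 1.1e-18). In the unconventional clone with the drug its mean level was below the range of the array medians of all genes, where differences are compressed, so the second value may understate the change in RNA. Ubash3a, a relative of Ubash3b, was lower too, with changes of -4.02 and -4.72. Its means in the unconventional clone, 5.30 and 5.41, were also near the array medians of all genes (5.36 to 5.55). Lck, the kinase that CD8 carries, is not analysed here. Zap70, chosen for its place after the CD3 chains and not by the naming rule, rose with the drug by 1.07 (adjusted p = 1.3e-09) in the conventional and by 0.68 (adjusted p = 1.6e-06) in the unconventional clone.

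Of the signalling chains of other receptors, 6 were measured. With the drug 0 were called in the conventional clone, against 31.4% of all genes, and 2 were called higher in the unconventional clone, against 12.6% of all genes: Cd79a, a B cell receptor chain, by 0.38 and Hcst, the DAP10 adaptor of Klrk1, by 0.35. Cd79a was at the low end throughout, with group means from 3.15 to 3.53. Tyrobp, the DAP12 adaptor, was lower in the unconventional clone, with changes of -0.46 and -0.44 without and with the drug. It was dim too, with group means from 4.29 to 4.87, below the range of the array medians of all genes (5.36 to 5.55).

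Of 18 transcription factors known to act on the Cd4, Cd8 or Cd3 genes, 17 were measured. Cyclosporine A raised 8 and lowered 6 in the conventional clone and raised 5 and lowered 3 in the unconventional clone. Over all genes these shares were 15.9% and 15.5%, then 12.6% and 12.3%. Satb1, a chromatin organizer that acts on the Cd8 locus in thymocytes, fell by 2.41 in the conventional clone (adjusted p = 1.3e-15) and fell by 1.74 in the unconventional clone (adjusted p = 3.1e-13). Myb and Lef1 fell by 1.82 and 1.61 in the conventional clone, and their effects differed between the clones by 1.93 and 1.12. Gata3 went the other way, with changes of 0.94 in the conventional and -0.47 in the unconventional clone. Its effects differed by -1.42 (adjusted p = 3.0e-07). Runx1 rose by 0.72 and the Ets factor Elf1 by 0.64 in the unconventional clone, and by 0.81 and 0.31 in the conventional clone. Between the clones 8 factors were higher and 5 lower in the unconventional clone with anti-CD3 alone, and 9 higher and 5 lower with the drug, where 42.0% and 44.2% of all genes were called. Tcf3, an E protein gene, was higher there by 1.27 and 1.85 without and with the drug (adjusted p = 8.4e-12 and 1.8e-14). Runx3, which silences Cd4 in the CD8 lineage, was higher there by 0.59 and 0.94 (adjusted p = 2.3e-05 and 3.1e-08).

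Other T cell surface receptors, 12 measured of 14, gave 4 higher and 4 lower with the drug in the conventional clone and 5 higher and 1 lower in the unconventional clone, where 31.4% and 24.9% of all genes were called. Between the clones 2 were higher and 4 lower with anti-CD3 alone, and 4 higher and 6 lower with the drug, against 42.0% and 44.2% of all genes called. Cd28, the main costimulatory receptor, rose by 1.73 and 1.77 in the conventional and unconventional clone. It was far lower in the unconventional clone, with changes of -5.08 (adjusted p = 1.3e-15) and -5.04 (adjusted p = 1.1e-15) without and with the drug. Its means there were 5.33 and 7.10. The first lies just below the range of the array medians of all genes (5.36 to 5.55), where differences are compressed. Cd7 went the other way between the clones, higher by 4.05 and 4.83 in the unconventional clone. With the drug Thy1 fell by 1.00 in the conventional clone and fell by 0.66 in the unconventional clone. Cd96 rose by 1.34 in the unconventional clone. Cd44 rose by 1.73 in the unconventional clone and changed by -0.48 (adjusted p = 0.0325) in the conventional clone, and these effects differed by 2.20 (adjusted p = 1.0e-06).

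Among 6 genes of receptor turnover, the drug raised 3 and lowered 1 in each clone, where 31.4% of all genes were called in the conventional and 24.9% in the unconventional clone. Sla2, an adaptor that helps a ubiquitin ligase down-regulate the receptor, rose by 2.18 (adjusted p = 1.7e-13) and 1.36 (adjusted p = 4.7e-10) in the conventional and unconventional clone. Laptm5, a lysosomal protein known to promote breakdown of the zeta chain, rose by 0.86 and 0.96 (adjusted p = 6.5e-09 and 4.2e-09). It was lower in the unconventional clone, with changes of -1.07 and -0.97 without and with the drug. Sla, the relative of Sla2, was lower there too, with changes of -1.55 and -2.15. Sla2 itself was higher in the unconventional clone by 1.43 and 0.61, and the ubiquitin ligase Nedd4 by 0.49 and 0.71. Of the 6 genes, 2 were called higher and 3 lower between the clones with anti-CD3 alone, where 42.0% of all genes were called. With the drug 3 were called higher and 3 lower, where 44.2% of all genes were called.

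**Figure D5:**
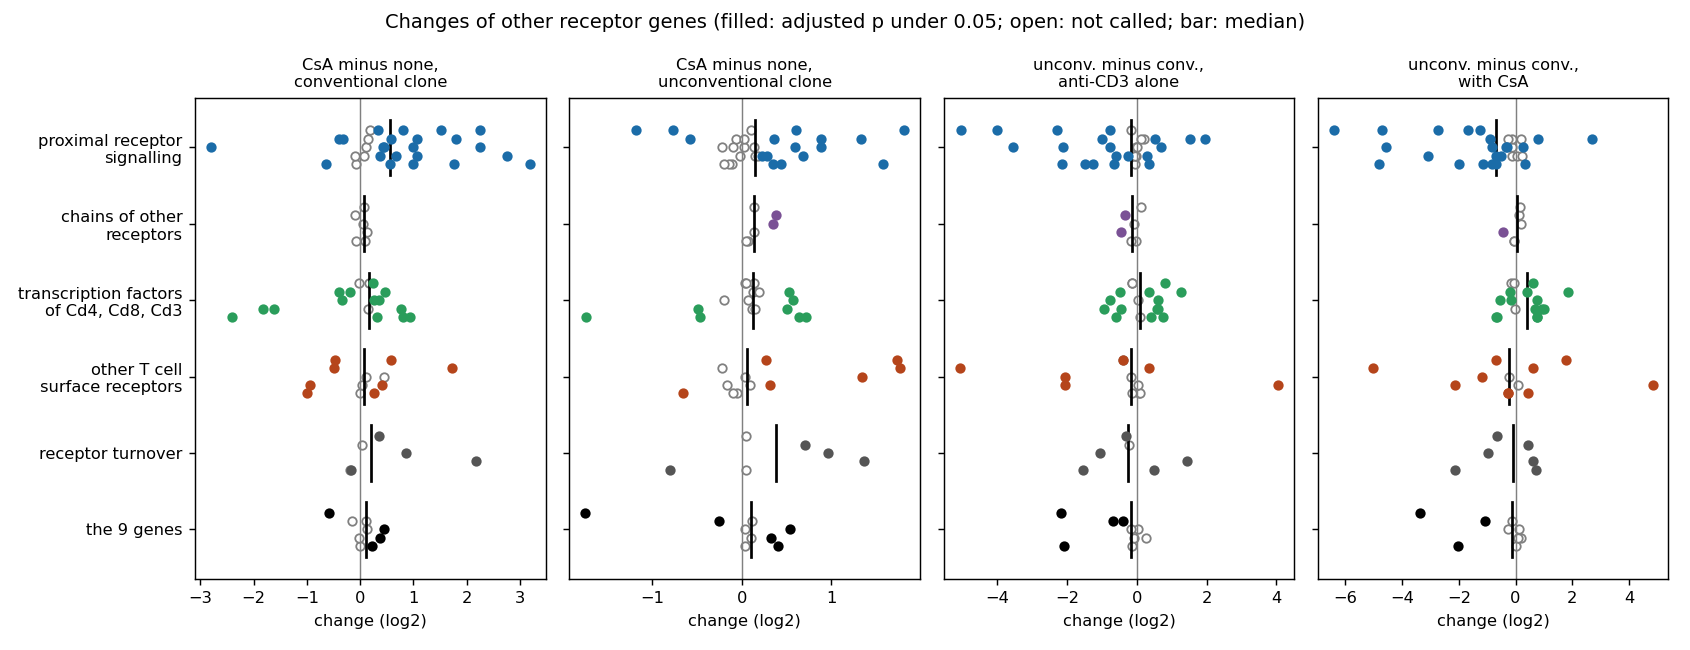
Change of each measured gene of the 5 lists and of the 9 genes (x axis, log2; 1 point per gene, lists on the y axis) for the drug in each clone and for the unconventional against the conventional clone; filled points were called, open points were not, and bars are medians. The proximal signalling genes spread widely, with medians of 0.56 and 0.15 for the drug and -0.16 and -0.70 between the clones, while the chains of other receptors lie between -0.46 and 0.38.

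The genes most like Cd8a, Cd8b1 and Cd247 were found by the root mean square difference of their 4 group means, each gene centred on its own mean, over 3041 other genes brighter than the median gene whose group means spanned at least 1. The 4 groups share their 16 arrays, and the measure is a description. For Cd8b1 the nearest were Fndc1 (0.034), Chchd10 (0.037), Cln3 (0.048), Eif4ebp1 (0.076) and Glipr2 (0.081). For Cd247 they were Coq10b (0.016), Snord16a (0.039), Tmem39a (0.048), Skil (0.049) and Ppp4r1 (0.051). Cd8a had no neighbour as close, the nearest being Pde1a (0.262), Exd2 (0.366), Hnrnpll (0.378), Crtam (0.379) and Uhrf2 (0.384). Pde1a, a calcium-dependent phosphodiesterase gene, had group means of 10.28, 9.45, 8.43 and 6.01, and Crtam, a receptor of activated cytotoxic T cells, had 9.45, 8.42, 6.30 and 4.65, in the order conventional, conventional with drug, unconventional, unconventional with drug. The group means of the compared genes spanned 3.94 for Cd8a, 2.08 for Cd8b1 and 1.06 for Cd247, so the distances are not on 1 scale.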

How the data were processed

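RNA of 16 arrays was compared in 4 groups of 4. The authors deposited log2 expression values, 1 per probe set and array; GCOS, Partek 6.2 and RMA are named per the submitters' processing notes, with no role or order. That the scale is log2 was taken from the range of the values, 2.08 to 14.55, with array medians between 5.16 and 5.35. The sources used here give neither genome build nor annotation version. Precision rests on the number of arrays, and normalization across arrays can hide a change shared by most transcripts.

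There were 28853 probe sets, of which 21789 carried a single gene symbol, 1621 several and 5443 none here. The probe set with the highest mean was used for each gene, which left 19938 genes, with no filter on dim genes. One mean per group was estimated from all 16 arrays together (limma 3.58.1, R 4.3.3), leaving 12 residual degrees of freedom (median 18.8 once moderated). Benjamini-Hochberg adjustment covered all genes. Differences within arrays were tested with exact permutation tests over 70 regroupings, adjusted over 12 tests. Intervals are 95% intervals. The steps were tested on simulated data.

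The 9 genes and the lists were chosen with earlier results of these data known. From each list the 3 called genes with the largest absolute change in a comparison could be named, and most of them are. Promoter windows of RefSeq (GRCm38.p6) were matched by symbol for 6 of the 9 genes. Alternatives were quantile, loess and median normalization, the mean of probe sets, all probe sets, brighter genes only, a variance trend with robust estimation, array weights, the compared groups alone, a replicate block, and each array left out.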

Additional observations from a re-analysis of the deposited data

Results flagged for a closer look

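The effect of cyclosporine A differed between the clones for 2 of the 9 genes by the test of the difference itself. For Cd8a the effect in the unconventional clone minus that in the conventional clone was -1.17 (limma, adjusted p = 3.5e-07), and for Cd247 it was -0.37 (limma, adjusted p = 0.0057). On single arrays, Cd3g at 12.64 in replicate 3 of the conventional clone with cyclosporine A was above the other 3, which were all at 12.59, and Cd247 at 9.18 in replicate 2 of the unconventional clone with anti-CD3 alone was above the other 3, at 9.05 to 9.07. Of the 36 sets of 4 arrays examined this way, chance flags about 1 in 20.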

How the results depend on the processing

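One alternative, the mean of a gene's probe sets, could not move these values, since each of the 9 genes has 1 probe set, and is left out of these counts. Of 822 other alternative values for the changes of the 9 genes, 796 stayed on their side of the threshold, 774 of them with the same sign, 10 lost the call and 16 gained it. The 10 losses were Cd3d with cyclosporine A in the conventional clone and Cd3e in the unconventional clone, given in the report. The 22 values with another sign belonged to changes that were not called, and 0 called changes turned. All 120 such within-array values kept their direction, and leaving out an array there gives a value with no test, since 3 against 4 cannot go below 0.0571. With array weights, 5 of the 9 genes instead of 3 were called between the clones with the drug, Cd3e and Cd5 being added; the cause was not tested. Over all alternatives, arrays left out in turn included, 3 to 4 genes were called for the drug in the conventional clone, 4 to 5 in the unconventional clone, 2 for the difference of effects, 4 to 6 between the clones with anti-CD3 alone and 3 to 5 with the drug. With a replicate block the counts were 4, 5, 2, 4 and 3, as without it, and no call of the 9 genes changed. Same-numbered arrays of different groups correlated at -0.137 to 0.284 in their deviations from the group means, so the numbers were not taken to pair the arrays. Limits are the 4 arrays per group, 1 clone of each kind, the dim signals of Cd4, Cd5 and Cd6, which the filter on brighter genes removes, and that all groups were stimulated.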

Other observations

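Genes beside the other members, read in the RefSeq order (GRCm38.p6), are given as values. Of 6 neighbours of Cd3g, Cd3d and Cd3e, the drug raised 1 and lowered 1 in the conventional clone and raised 2 and lowered 0 in the unconventional clone. Of all genes, 31.4% and 24.9% were called. Ube4a, next to Cd3g on chromosome 9, rose by 0.66 (limma, adjusted p = 5.0e-07) in the conventional and by 0.43 (limma, adjusted p = 1.8e-04) in the unconventional clone. Mpzl3 changed by -0.23 (limma, adjusted p = 0.0235) in the conventional clone. Mpzl2 on the far side of Cd3e was dim, with group means of 4.01 to 4.23, and was not called with the drug. Beside Cd247 on chromosome 1, Creg1 was lower in the unconventional clone, with changes of -1.12 (limma, adjusted p = 5.1e-09) with anti-CD3 alone and -0.54 (limma, adjusted p = 7.3e-05) with the drug, and Rcsd1 was lower by changes of -0.61 and -0.45. Mpzl1 was higher there by 0.69 with the drug (limma, adjusted p = 1.2e-07). Of 6 neighbours of Cd247, 0 were called higher and 2 lower with anti-CD3 alone, and 1 higher and 3 lower with the drug. Of all genes, 42.0% and 44.2% were called. Lag3, an inhibitory receptor gene next to Cd4 on chromosome 6, was dim, with group means of 4.30 to 4.55. Tmem109, after Cd6 on chromosome 19, fell by 1.72 (limma, adjusted p = 3.4e-13) with the drug in the conventional clone and fell by 1.30 (limma, adjusted p = 5.4e-11) in the unconventional clone, while Cd5 and Cd6 were not called.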
